A study of Caenorhabditis elegans with 8 samples.

Results

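RNA from whole Caenorhabditis elegans was compared between nematodes fed an RNAi plasmid with an insert, whichever insert it was, and nematodes fed the L4440 plasmid with none. All 8 libraries of the series entered the comparison. The 6 libraries labelled hlh-2 RNAi or lin-32 RNAi, 3 of each, formed one side as the average of both group means, and the 2 libraries labelled L4440 formed the other. Every group was of the wild-type N2 strain with no other allele or agent named. The labels give neither age nor stage, and do not say how many animals were pooled. Nothing in them says that replicates were grown as separate cultures, so the spread behind each p-value may be technical.

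In feeding RNAi, bacteria make double-stranded RNA from an insert, the worm takes it up in the gut, and it spreads between cells through the channel SID-1. Dicer and the Argonaute RDE-1 then turn it into small RNAs that direct the loss of the matching transcript. L4440 is the standard vector, and without an insert it serves as the control for bacterial diet and plasmid. HLH-2, the E protein of worms, and LIN-32, an Atonal-like protein, are basic helix-loop-helix transcription factors of early neural fate. Changes common to both groups can come from RNAi itself, from what the targets share, or from how control and insert cultures were handled, and with these groups those cannot be told apart. In bulk RNA of whole animals, fewer cells of a type and less RNA per cell cannot be told apart either.

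The targeted genes check the labels, and neither passed the pooled test. The hlh-2 gene was at 50.6 and 49.0 CPM (read counts relative to library size, scaled by edgeR's TMM method) in L4440, at 49.0, 48.9 and 53.9 in the libraries labelled hlh-2 RNAi, and at 22.98, 27.8 and 15.6 in those labelled lin-32 RNAi. Its level was thus low in the libraries labelled lin-32 RNAi and not in those labelled for it, which goes against the label, so libraries are called by their labels throughout. The lin-32 gene had 33 and 39 counts in L4440, 73, 114 and 67 under the hlh-2 RNAi label, and 28, 24 and 23 under its own. Its groups under the 2 RNAi labels lay on opposite sides of the control. Pooled, the log2 fold change was -0.57 ± 0.13 (SE) for hlh-2 (adjusted p = 0.124 by edgeR's quasi-likelihood test) and near 0 for lin-32 (-0.0037 ± 0.20).

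The L4440 libraries totalled 22380739 and 27737470 counts and the others 28979768 to 34814808, so the controls were also the 2 shallowest. Ribosomal RNA took 0.399% to 1.29% and the mitochondrial genome 0.184% to 0.211% of a library, with overlapping groups. Markers of gut, epidermis, muscle, neurons, germline and oocytes were all detected, as whole animals would show. Summed over a list, intestinal markers stood at 4279 to 4318 CPM in L4440 and 4046 to 4571 CPM in the RNAi libraries, and pan-neuronal genes at 1990 to 2051 CPM and 1887 to 2021 CPM.

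In the test without pairing, the average of both RNAi groups showed modest changes in a small set of genes. Lysozyme, cathepsin B-like protease and UDP-glucuronosyltransferase genes were among those that rose. The arginine kinase gene argk-1, the sulfur amino acid genes cth-1 and cysl-2, 6 C-type lectin loci and 3 cuticle collagen genes were among those that fell. Both loci named clec-209 are among the 6 and are best read as 1 measurement. The collagen genes fell further under the lin-32 RNAi label. Under the hlh-2 RNAi label alone none of them passed against L4440 (adjusted p by edgeR of 0.503 for sqt-1, 0.269 for col-17 and 0.168 for col-90). Of 14272 genes tested, 57 (0.399%) passed an adjusted p of 0.05, of which 16 (0.112%) rose and 41 (0.287%) fell. An unadjusted p below 0.05 was found for 1453 (10.2%), the share to set beside such counts in the lists below. With replicate number fitted as a block among the 6 RNAi libraries, whose numbers correlated, 326 passed, of which 147 were higher and 179 lower, so that both the number of calls and their balance (71.9% lower without the block, 54.9% with it) depended on this term. The median log2 fold change was 0.69 among the genes that rose and -0.68 among those that fell, against -0.0011 over all genes tested. Only 12 of the 57 changed more than 2-fold, 9 of them downward, while 14 changed less than 1.25-fold.

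**Figure D1:**
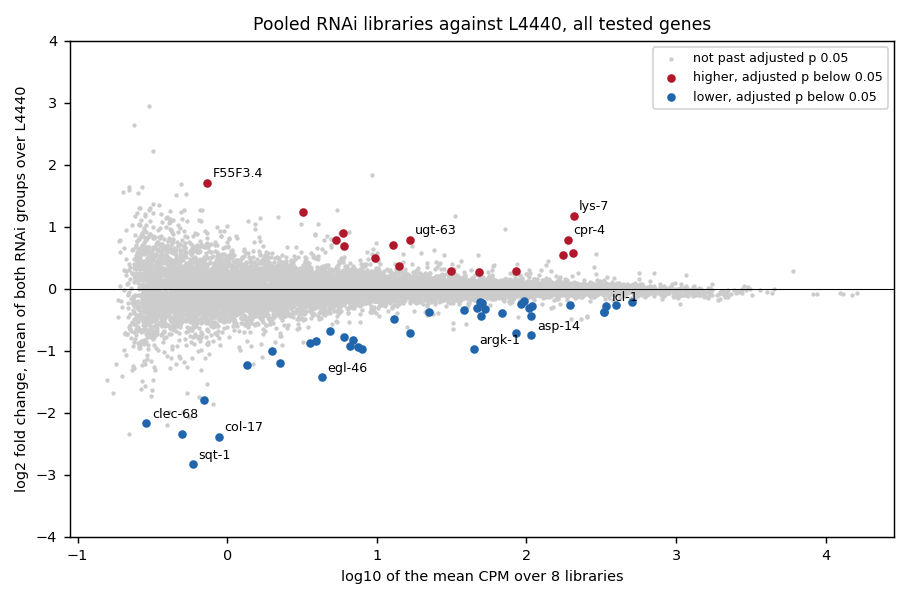
Log2 fold change of the RNAi libraries (mean of both groups) over L4440 on the y axis against the log10 of the mean CPM over 8 libraries on the x axis, 1 point per tested gene. The 16 genes that rose and 41 that fell are coloured and some are named; most called genes of high level lie close to 0, and sqt-1 (-2.83) is the lowest called gene.

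Summed over the 16 genes that rose, levels were 712 and 692 CPM in L4440 and 1035 to 1286 CPM in the RNAi libraries. Summed over the 41 that fell, they were 3955 and 3943 CPM in L4440 and 3035 to 3161 CPM in the RNAi libraries. These sums describe genes chosen by the same test. Both controls lay within a median of 0.088 log2 units of each other for the 57 genes, and within 0.54 for the most unequal one. For all genes tested the median was 0.10, there with 0.1 CPM added to both controls. The 57 were chosen by a test that favours genes whose controls agree. In 53 of the 57, all 6 RNAi libraries lay outside both controls. The same held for 1733 of all tested genes (12.1%). Of the 57, 53 are protein-coding, 3 are pseudogenes and 1, tts-1, is a long non-coding RNA.

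With only 2 controls, each L4440 library carried much of the result. Without L4440 replicate 1 the test called 16 genes, all among the 57, and without replicate 2 it called 7, also all among the 57. In those fits the remaining control is assumed to vary like the other groups. A set of 6 genes passed with any single library left out, namely argk-1, ugt-63, F48E3.2, egl-46 and both loci named clec-209. All 57 kept their sign in every such fit.

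**Figure D2:**
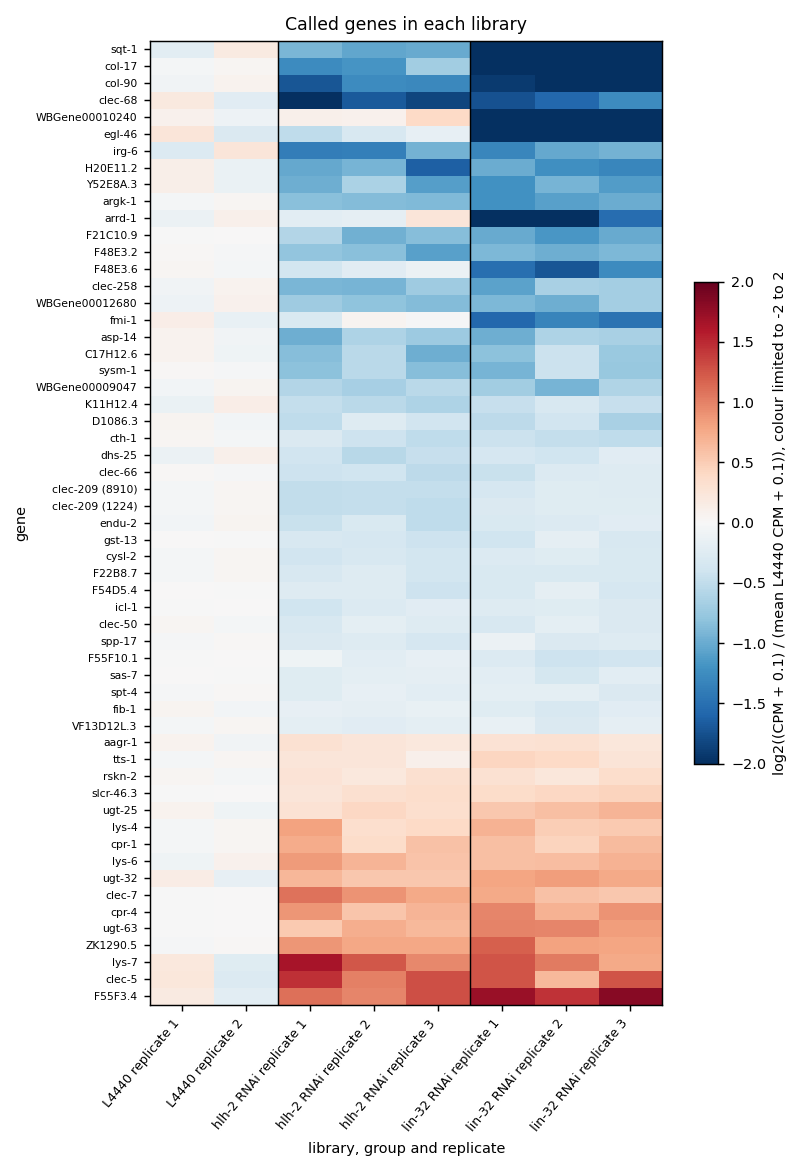
Log2 ratio of each library's CPM to the mean of the L4440 libraries (0.1 CPM added to both) for the 57 genes that passed, 1 row per gene and 1 column per library, with colour limited to -2 to 2. Most rows have like colours across the 6 RNAi libraries, whereas egl-46, arrd-1, fmi-1, F48E3.6 and WBGene00010240 are dark only under the lin-32 RNAi label.

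The smallest p belonged to argk-1 (chromosome V, 16103894 to 16105952 of WBcel235), which encodes an arginine kinase, an enzyme that stores high-energy phosphate as phosphoarginine. It was at 68.7 and 72.0 CPM in L4440, at 39.6, 38.6 and 37.9 CPM under the hlh-2 RNAi label, and at 30.2, 33.2 and 35.3 CPM under the lin-32 RNAi label. Every RNAi library stood well under the control level, with the groups far apart. The fall was -0.98 ± 0.051 on the log2 scale, or 1.97-fold (adjusted p = 1.85e-06 by edgeR), and the log2 fold change lay between -1.01 and -0.94 in all alternatives run. Its list held 3 other tested genes, 1 for an adenylate kinase (let-754) and 2 for AMP-activated protein kinase subunits (aak-1 and aak-2), and edgeR, DESeq2 and limma-voom called argk-1 as its 1 member.

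Directly upstream of argk-1 on the same strand lies cth-1, for cystathionine gamma-lyase, which releases cysteine in the transsulfuration pathway. It was at 137 and 131 CPM in L4440, at 110, 101 and 94.5 CPM under the hlh-2 RNAi label, and at 99.1, 96.5 and 94.0 CPM under the lin-32 RNAi label. All RNAi libraries were below both controls, and the log2 fold change was -0.44 ± 0.048 (adjusted p = 0.00121 by edgeR). The stretch from 16086572 to 16105952 on chromosome V, 19381 bases long, holds 5 tested genes, and 4 of them fell. Besides argk-1 and cth-1 these were F22B8.7 (-0.31 ± 0.044 log2) and the pseudogene WBGene00009047 (-0.68 ± 0.11 log2).

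The gene inside the stretch that was not called is str-7, for a predicted chemoreceptor on the opposite strand. It was at 7.89 and 6.35 CPM in L4440 and at 3.99 to 6.30 CPM in the RNAi libraries, a narrow separation (-0.54 ± 0.16 log2, adjusted p = 0.254 by edgeR). Runs of neighbouring tested genes were counted in which all 6 RNAi libraries lay on the same side of both controls for every gene, and this was the only run of 5. There was none of 4, 8 of 3 and 111 of 2. The stretch was picked out after its values were seen and has no test of its own. Without L4440 replicate 1 the adjusted p of cth-1 was 0.05004, just above the threshold, and without replicate 2 those of F22B8.7 and WBGene00009047 were 0.280 and 0.369.

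Of the genes of sulfur amino acid metabolism, cysl-2 fell besides cth-1. It encodes a cysteine synthase-like enzyme that consumes cyanide and is a known target of the hypoxia factor HIF-1. Its level was 119.2 and 124.9 CPM in L4440, 93.7, 97.6 and 94.4 CPM under the hlh-2 RNAi label, and 101, 103 and 99.0 CPM under the lin-32 RNAi label. The groups did not overlap, and the difference was small against a tight spread (-0.32 ± 0.033 log2, adjusted p = 0.00109 by edgeR). The gene shares 36 exonic bases with vnut-1 on the other strand, and the library kit does not mark strand.

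Of 23 genes of the methionine cycle and transsulfuration, 2 fell and none rose, with 10 above 0 and a median of -0.016 log2, close to that of all genes. Unadjusted p-values below 0.05 by edgeR were found for 10 (43.5%), against 10.2% of all genes tested. All RNAi libraries lay below both controls for 6 (26.1%) and above them for 2 (8.70%). Over all genes tested those shares were 6.27% and 5.87%. The nearest other member was smd-1, for the S-adenosylmethionine decarboxylase of spermidine synthesis, at 0.29 ± 0.057 log2 with an adjusted p of 0.0517 by edgeR. Of 11 hypoxia response genes, cysl-2 fell and no other passed (median -0.075 log2). The call for cysl-2 was lost without L4440 replicate 2 (adjusted p = 0.0647).

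**Figure D3:**
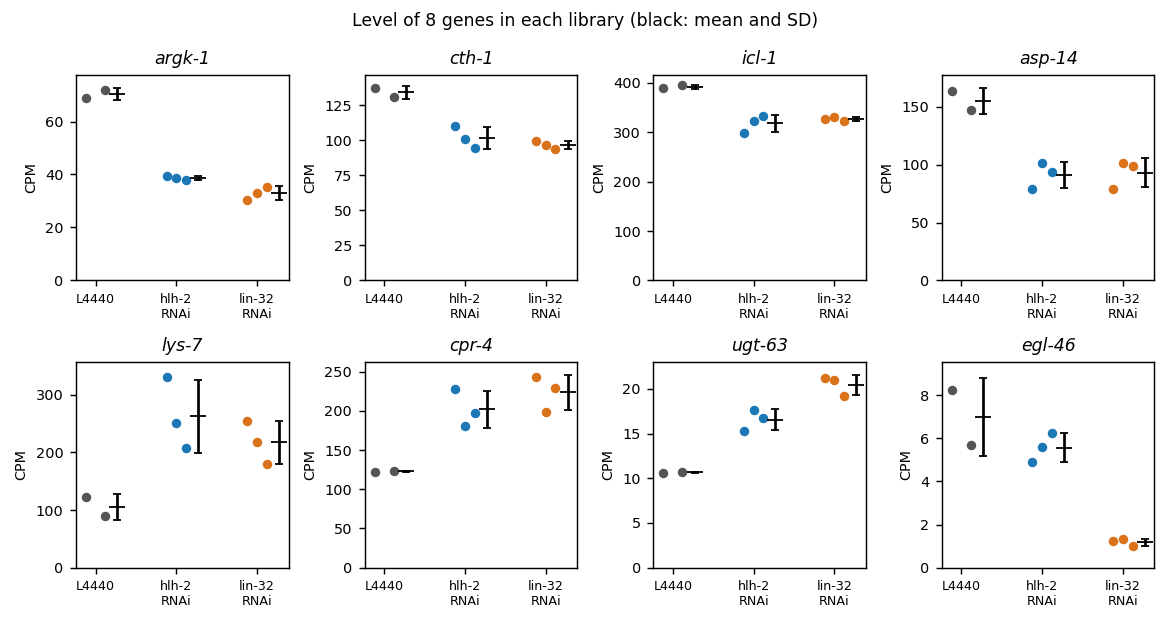
CPM of 8 genes in each library, 1 point per library by group, with the mean and SD of each group in black; each y axis starts at 0 and has its own range. For argk-1, cth-1, icl-1, asp-14, lys-7, cpr-4 and ugt-63 both RNAi groups lie on one side of L4440, and for egl-46 the libraries labelled hlh-2 RNAi overlap it.

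Lysozymes, which break bacterial cell walls and are made largely in the worm's gut, rose where they changed. Of 11 tested, lys-7, lys-6 and lys-4 rose and none fell; 9 of 11 lay above 0 and the median was 0.16 log2. The strongest was lys-7, a known antimicrobial target of the insulin-pathway factor DAF-16. It was at 121.9 and 89.7 CPM in L4440, at 331, 250 and 207 CPM under the hlh-2 RNAi label, and at 254, 218 and 180 CPM under the lin-32 RNAi label. The groups did not overlap, though libraries of one group differed by more than for most genes named here. Its rise was 2.27-fold (1.18 ± 0.17 log2, adjusted p = 0.0112 by edgeR).

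On chromosome IV, lys-4 and lys-6 flank lys-5 within 6519 bases. In L4440, lys-4 was at 126 and 134 CPM, against 165 to 227 CPM in the RNAi libraries (0.55 ± 0.10 log2, adjusted p = 0.0446 by edgeR). For lys-6 the levels were 3.85 and 4.36 CPM against 6.14 to 7.49 CPM (0.68 ± 0.12 log2, adjusted p = 0.0228). All RNAi libraries were above both controls for the 3 neighbours, lys-5 included, but lys-5 itself did not pass (0.59 ± 0.12 log2, adjusted p = 0.0711). None of the lysozyme calls held with a control left out: the adjusted p for lys-7 was 0.0524 without L4440 replicate 1 and 0.303 without replicate 2, and for lys-4 it was 0.412 and 0.369.

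Digestive proteases changed in both directions. Of 7 cathepsin B-like proteases, cpr-4 and cpr-1 rose and none fell (median 0.095 log2). The level of cpr-4 was 122.5 and 123.2 CPM in L4440, 228, 181 and 197 CPM under the hlh-2 RNAi label, and 243, 199 and 230 CPM under the lin-32 RNAi label. The controls were nearly equal, and even the lowest RNAi library stood well above them (0.79 ± 0.084 log2, 1.73-fold, adjusted p = 0.00109 by edgeR). For cpr-1 it was 146 and 153 CPM in L4440 and 193 to 249 CPM in the RNAi libraries (0.57 ± 0.080 log2, adjusted p = 0.00794). Another gene, cpr-5, had 97.3 and 121 CPM in L4440 and 116 to 179 CPM in the RNAi libraries, and the groups overlapped (0.44 ± 0.14 log2, adjusted p = 0.285).

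Of 11 aspartyl proteases, asp-14 fell and none rose (median -0.021 log2). It was at 163 and 147 CPM in L4440, at 78.8, 101 and 93.8 CPM under the hlh-2 RNAi label, and at 78.7, 102 and 98.8 CPM under the lin-32 RNAi label. Both RNAi groups lay at one level, well under the controls (-0.75 ± 0.092 log2, adjusted p = 0.00288 by edgeR). Neither asp-13 (0.25 ± 0.050 log2, adjusted p = 0.0584) nor asp-1 (-0.24 ± 0.051 log2, adjusted p = 0.0714) passed. Among the 11 aspartyl proteases, 5 (45.5%) had an unadjusted p below 0.05 by edgeR, against 10.2% of all genes tested. Of 23 intestinal markers, 2 passed, and these were cpr-4 and cpr-1 themselves. Of the 23, 18 (78.3%) lay above 0 and 9 (39.1%) had an unadjusted p below 0.05. Over all genes tested those shares were 49.5% and 10.2%. The median of the markers was 0.055 log2, and the part of gut cell number in these values was not tested. Without L4440 replicate 1 the adjusted p was 0.190 for cpr-1 and 0.116 for asp-14; without replicate 2 it was 0.182 for cpr-1, and 0.0631 for both cpr-4 and asp-14.

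C-type lectin domain genes, a large family of secreted and membrane proteins many of which respond to bacteria, moved in both directions. Of 103 tested, 2 rose and 6 fell, with 48 above 0 and a median of -0.011 log2. Unadjusted p-values below 0.05 by edgeR were found for 23 (22.3%), against 10.2% of all genes tested. Next to argk-1, the 2 loci named clec-209 had the smallest p. At the locus on chromosome V from 2351676 to 2352932, counts were 385 and 404 CPM in L4440, 280, 283 and 279 CPM under the hlh-2 RNAi label, and 322, 333 and 334 CPM under the lin-32 RNAi label. The 3 groups were wholly separate, with the lin-32 RNAi label in the middle (-0.38 ± 0.031 log2, adjusted p = 0.000237 by edgeR).

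The second locus of that name, from 2459637 to 2460893, gave -0.38 ± 0.035 log2 (adjusted p = 0.000484). Both have 891 exonic bases and nearly equal CPM in every library, so reads may have been split between near-identical copies, and they are best read as 1 measurement. Among abundant lectins, clec-50 had 468 and 446 CPM in L4440 and 365 to 398 CPM in the RNAi libraries (-0.27 ± 0.042 log2, adjusted p = 0.0163). The groups were apart, but the gap was small.

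At low levels, clec-68 had 18 and 16 counts in L4440, 3, 5 and 4 under the hlh-2 RNAi label, and 4, 6 and 7 under the lin-32 RNAi label (-2.17 ± 0.35 log2, adjusted p = 0.0171 by edgeR). This rests on a few reads per library, with no overlap, and DESeq2 did not call it. Its neighbour clec-67 was at 7.89 and 9.19 CPM in L4440 and at 3.93 to 7.42 CPM in the RNAi libraries and was not called (-0.53 ± 0.21 log2, adjusted p = 0.401). Also lower were clec-258 (-0.84 ± 0.13 log2) and clec-66 (-0.38 ± 0.064 log2). Neighbouring clec-65 was not called at -0.25 ± 0.056 log2 (adjusted p = 0.108).

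The lectins that rose were clec-7, at 3.401 and 3.449 CPM in L4440 and 5.05 to 7.39 CPM in the RNAi libraries (0.79 ± 0.13 log2, adjusted p = 0.0184), and clec-5, at 1.90 and 1.31 CPM against 2.57 to 4.62 CPM (1.24 ± 0.23 log2, adjusted p = 0.0469). Both had all RNAi libraries above the controls. Of the lectin calls, only those at the clec-209 loci held without either control in turn; for clec-50 the adjusted p was 0.317 without L4440 replicate 1 and 0.182 without replicate 2.

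Other immune lists gave few calls. Of 41 saposin-like and antimicrobial peptide genes, spp-17 fell, from 220 and 226 CPM in L4440 to between 176 and 206 CPM (-0.26 ± 0.042 log2, adjusted p = 0.0184 by edgeR), and the list median was -0.082 log2. The caenacin peptide gene cnc-2 did not pass (-0.51 ± 0.13 log2, adjusted p = 0.153). Of 40 infection response genes, irg-6 fell, from 1.95 and 2.83 CPM to between 0.858 and 1.20 CPM (-1.23 ± 0.21 log2, adjusted p = 0.0199), and the list median was near 0. No overlap was seen for either called gene. Unadjusted p-values below 0.05 by edgeR were found for 8 (19.5%) of the first list and 8 (20%) of the second, against 10.2% of all genes tested. All RNAi libraries lay below both controls for 14.6% and 17.5% of them, and above for 4.88% and 5%. Over all genes tested those shares were 6.27% and 5.87%. For dod-24, a DAF-16-regulated gene that also responds to pathogens, the value was -0.65 ± 0.13 log2 with an adjusted p of 0.0564. Of 17 tested pals genes, which mark the response to microsporidia and viruses, edgeR called none, and DESeq2 and limma-voom called 0. Of the 17, 2 (11.8%) had an unadjusted p below 0.05, against 10.2% of all genes tested. Without L4440 replicate 2 the adjusted p was 0.370 for spp-17 and 0.516 for irg-6.

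Enzymes that conjugate small lipophilic compounds rose in part. Of 58 UDP-glucuronosyltransferases, 3 rose (ugt-63, ugt-32, ugt-25) and none fell, with 35 above 0 and a median of 0.064 log2. For ugt-63 (chromosome V, 5108180 to 5110772) the level was 10.6 and 10.7 CPM in L4440, 15.3, 17.6 and 16.7 CPM under the hlh-2 RNAi label, and 21.2, 20.96 and 19.2 CPM under the lin-32 RNAi label. The 3 groups were separate in that order (0.79 ± 0.078 log2, 1.73-fold, adjusted p = 0.000858 by edgeR). For ugt-32 it was 9.75 and 7.81 CPM in L4440 and 12.8 to 15.8 CPM in the RNAi libraries (0.70 ± 0.092 log2, adjusted p = 0.00470). For ugt-25 it was 7.94 and 7.12 CPM against 9.24 to 12.1 CPM (0.49 ± 0.087 log2, adjusted p = 0.0332). In both the RNAi libraries were all higher. The next member, ugt-53, was not called (0.48 ± 0.11 log2, adjusted p = 0.127).

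Cytochrome P450 enzymes act on similar compounds. Of 61 tested, 43 lay above 0 with a median of 0.15 log2, the highest median among the detoxification lists. However, edgeR called none, DESeq2 called 1 and limma-voom called 0. An unadjusted p below 0.05 was found for 12 (19.7%), against 10.2% of all genes tested. The member with the smallest p was cyp-25A2, at 22.9 and 22.6 CPM in L4440 and 25.9 to 32.7 CPM in the RNAi libraries (0.32 ± 0.068 log2, adjusted p = 0.0845). Glutathione S-transferases lay on the other side. Of 39, gst-13 fell, from 62.3 and 61.5 CPM to between 46.5 and 54.6 CPM (-0.33 ± 0.052 log2, adjusted p = 0.0171), none rose, and the median was -0.078 log2. The next, gst-38, was at -0.90 ± 0.19 log2 and was not called (adjusted p = 0.0714). Among the 39, 9 (23.1%) had an unadjusted p below 0.05 by edgeR. Without L4440 replicate 2 the adjusted p was 0.0449 for ugt-63, 0.182 for ugt-32, 0.493 for ugt-25 and 0.280 for gst-13.

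**Figure D4:**
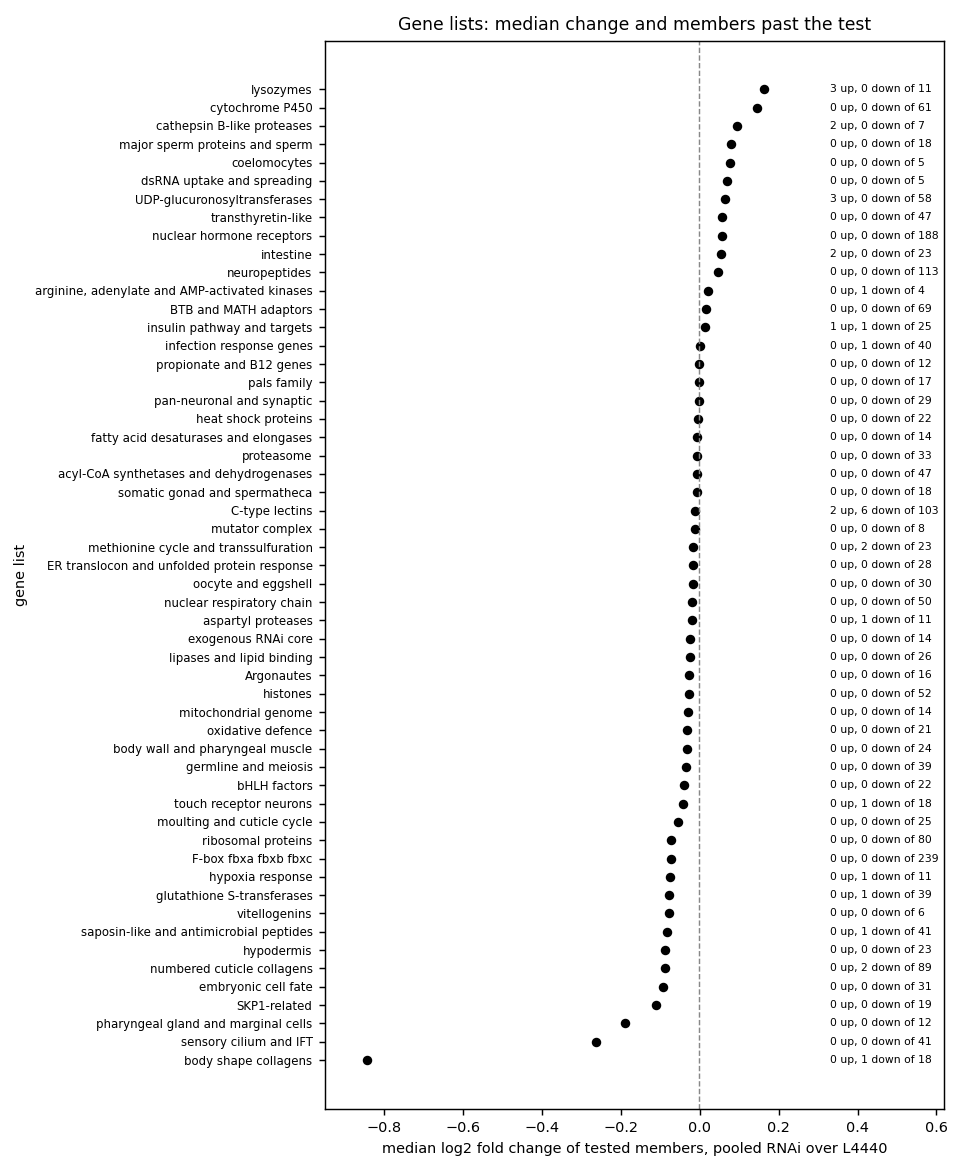
Median log2 fold change of the RNAi libraries over L4440 on the x axis for each gene list on the y axis, 1 point per list. The number of tested members that passed in each direction is at the right, and a dashed line marks the median of all genes tested (-0.0011). Lysozymes and cytochrome P450 genes have the highest medians (0.16 and 0.15), body shape collagens and cilium genes the lowest (-0.85 and -0.26), and in every list most members did not pass.

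Fuel metabolism gave few calls. The gene icl-1, for the bifunctional enzyme of the glyoxylate cycle that lets worms make sugar from fat, was at 389 and 395 CPM in L4440 and at 298 to 333 CPM in the RNAi libraries. All were lower, by a small margin (-0.28 ± 0.039 log2, adjusted p = 0.00769 by edgeR). Of 25 insulin pathway genes and targets, lys-7 rose and icl-1 fell. Unadjusted p-values below 0.05 by edgeR were found for 10 of the 25 (40%), against 10.2% of all genes tested. No gene was called among 14 fatty acid desaturases and elongases, or among 47 acyl-CoA synthetases and dehydrogenases. In each of these lists 4 had an unadjusted p below 0.05 (28.6% and 8.51%, against 10.2% of all genes tested). DESeq2 called 1 and 0 in them, and limma-voom called 0. A short-chain dehydrogenase gene, dhs-25, fell from 77.4 and 89.9 CPM to between 57.2 and 71.4 CPM (-0.39 ± 0.061 log2, adjusted p = 0.0144). Without L4440 replicate 2 the adjusted p was 0.238 for icl-1 and 0.382 for dhs-25.

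The 6 vitellogenins, yolk proteins made in the gut, all lay slightly below 0, from -0.11 to -0.042 log2. The lowest, vit-2, was at 16117 and 15796 CPM in L4440 and 14038 to 15267 CPM in the RNAi libraries (-0.11 ± 0.042 log2, adjusted p = 0.400). Its groups did not overlap, yet the test called none of the 6, with 1 at an unadjusted p below 0.05 and 0 called by DESeq2 or limma-voom. Ribosomal protein genes behaved in a like way: 7 of 80 lay above 0 and the median was -0.074 log2. An unadjusted p below 0.05 was found for 31 (38.75%), against 10.2% of all genes tested. None was called by edgeR or limma-voom, against 4 by DESeq2. With libraries scaled by total alone the ribosomal median was -0.054 log2, but that of all genes tested also moved up, from -0.0011 to 0.019. The member with the smallest p was rpl-31 (-0.17 ± 0.040 log2, adjusted p = 0.124).

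Among genes of growth and transcription outside the lists, fib-1, for the nucleolar methyltransferase fibrillarin, fell from 589 and 543 CPM to between 451 and 510 CPM (-0.22 ± 0.038 log2, adjusted p = 0.0310 by edgeR). The transcription elongation factor gene spt-4 fell by a like amount, with an adjusted p of 0.0495 and the weakest support of all 57, since its call was lost with any library left out. The centriole gene sas-7 averaged 57.2 ± 0.29 CPM (SD, n = 2) in L4440 and ran from 44.8 to 50.3 CPM in the RNAi libraries (-0.23 ± 0.044 log2, adjusted p = 0.0469). All 3 had separate groups and changes under 1.25-fold. Without L4440 replicate 1 the adjusted p of fib-1 was 0.472 and that of sas-7 was 0.394.

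Among cuticle collagens 3 fell, all of low level. Of 89 numbered collagens, col-17 and col-90 fell and none rose, 31 lay above 0, and the median was -0.12 log2 against L4440 for hlh-2 RNAi and 0.034 for lin-32 RNAi. Of 18 collagens that shape the body, sqt-1 fell and none rose, and all 18 lay below 0 with a median of -0.85 log2. By label the median of these 18 was -0.43 against L4440 for hlh-2 RNAi and -1.22 for lin-32 RNAi. Most abundant in L4440 were dpy-14, dpy-17, sqt-3 and dpy-10 (43.6, 38.4, 28.9 and 15.4 CPM). They lay at -0.090, -0.16, -0.017 and -0.082 log2, so the median reflects members of lower level. Summed over the 18, levels overlapped, at 127 to 179 CPM in L4440 and 100 to 160 CPM in the RNAi libraries. Unadjusted p-values below 0.05 by edgeR were found for 10 (55.6%), against 10.2% of all genes tested. For col-17 the counts were 42 and 55 in L4440, 23, 27 and 38 under the hlh-2 RNAi label, and 7, 5 and 2 under the lin-32 RNAi label (-2.39 ± 0.27 log2, adjusted p = 0.00150 by edgeR). For sqt-1 they were 25 and 42 in L4440, 20 in each library labelled hlh-2 RNAi, and 4, 1 and 0 under the lin-32 RNAi label (-2.83 ± 0.37 log2, adjusted p = 0.00503).

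Both genes stepped down from L4440 to hlh-2 RNAi to lin-32 RNAi with no overlap, on few reads. For col-90 the counts were 25 and 35, then 9, 15 and 14, then 7, 5 and 1 (-2.35 ± 0.34 log2, adjusted p = 0.00910), with 98 exonic bases shared with let-754 on the other strand and no called difference between the labels (adjusted p = 0.341). Of the other body shape collagens, the nearest to the threshold were dpy-5 (-2.33 ± 0.45 log2, adjusted p = 0.0532) and rol-6 (-2.20 ± 0.44 log2, adjusted p = 0.0552). Epidermal markers (0 of 23 called by edgeR, DESeq2 or limma-voom, 2 with an unadjusted p below 0.05) had a median of -0.088 log2, with summed levels of 582 to 598 CPM in L4440 and 552 to 583 CPM in the RNAi libraries; their part in the collagen values was not tested. Without L4440 replicate 2 the adjusted p was 0.0798 for col-17, 0.224 for sqt-1 and 0.267 for col-90.

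Whether the sides of the pool differed was tested gene by gene, as hlh-2 RNAi against lin-32 RNAi, a comparison whose estimate uses no control. Over all genes it called 58 (0.406%), and 269 when replicate number was fitted as a block among the 6 RNAi libraries. Among the 57 genes of the pooled comparison, 9 differed between the labels, or 14 with that block. All 9 fell in the pooled test; in 7 the level was lower under the lin-32 RNAi label and in 2, the clec-209 loci, it was lower under the hlh-2 RNAi label. For 43 of the 57 the 95% interval of the difference lay within 1.5-fold in either direction, and for 15 it lay within 0.2 log2 units of 0.

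**Figure D5:**
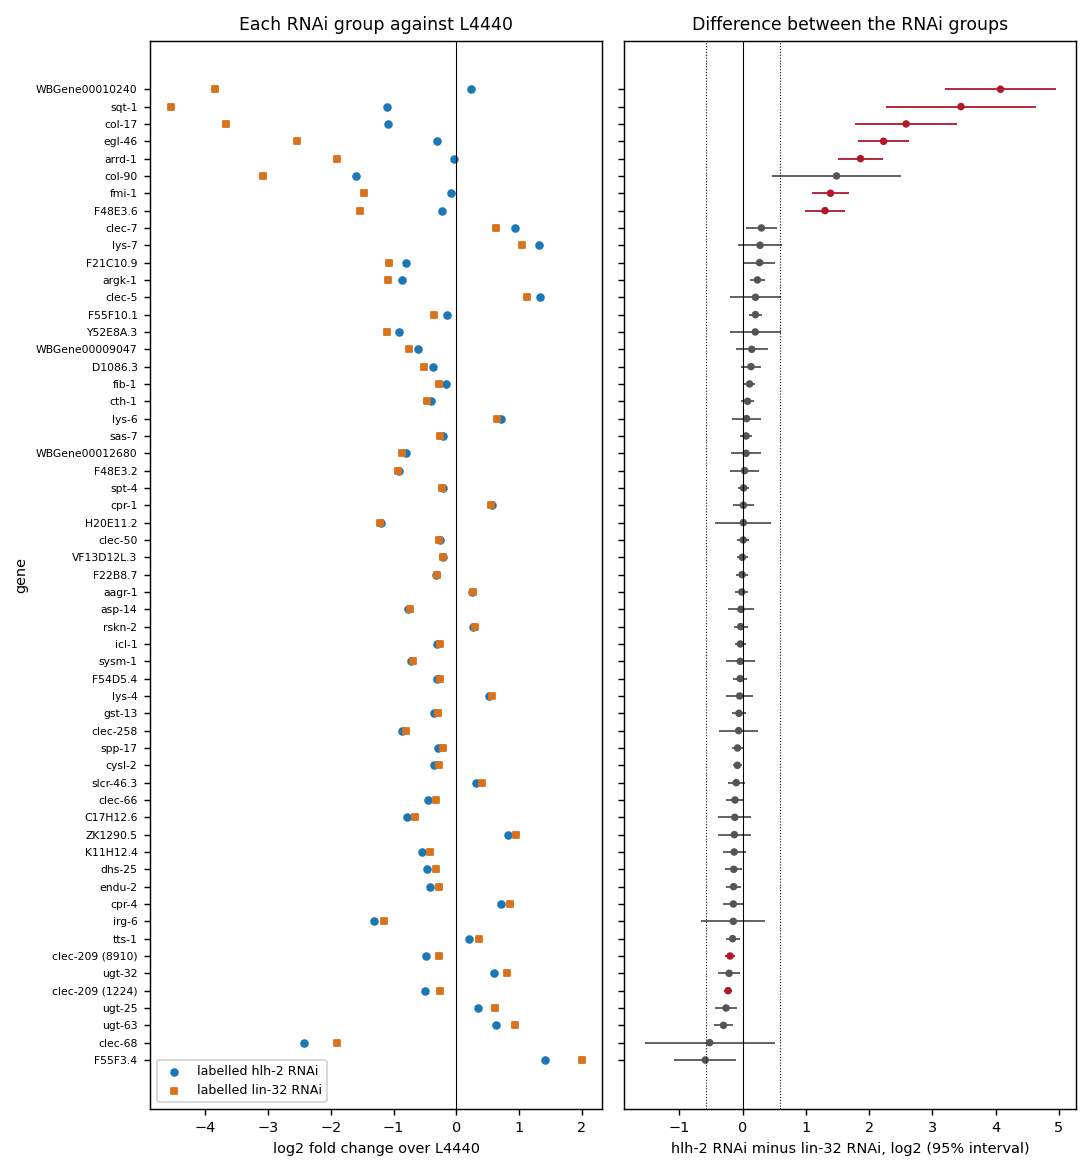
For each of the 57 genes (rows), the left panel gives the log2 fold change over L4440 under the hlh-2 RNAi label (circles) and the lin-32 RNAi label (squares), which share the L4440 libraries. The right panel gives the difference of the labels in log2 units with its 95% interval, red where it passed the test and with dotted lines at 1.5-fold; 7 red genes lie far to the right and the clec-209 loci just left of 0.

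For 4 of the 57 the controls overlapped the RNAi libraries, and in all 4 the overlap was with the libraries labelled hlh-2 RNAi. The clearest was egl-46, for a zinc finger factor of neuronal differentiation. It was at 8.25 and 5.70 CPM in L4440, at 4.88, 5.57 and 6.24 CPM under the hlh-2 RNAi label, and at 1.22, 1.33 and 0.996 CPM under the lin-32 RNAi label. Pooled, it fell by -1.43 ± 0.16 log2 (adjusted p = 0.00121 by edgeR), which averages -0.31 ± 0.17 and -2.54 ± 0.20. The difference between the labels was 2.23 log2 units (95% interval 1.83 to 2.62, adjusted p = 0.000225).

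For arrd-1, which encodes an arrestin-domain protein, the levels were 10.3 and 12.1 CPM in L4440, 9.60, 9.83 and 13.2 CPM under the hlh-2 RNAi label, and 2.55, 2.63 and 3.82 CPM under the lin-32 RNAi label. For fmi-1, the worm's Flamingo cadherin, which guides axons, the levels were 8.98 and 7.37 CPM, then 6.60, 8.46 and 8.02 CPM, then 2.69, 3.22 and 2.89 CPM. In both, the first 2 groups overlapped and the last stood far below. Their pooled values were -0.97 ± 0.15 log2 (adjusted p = 0.0158) and -0.77 ± 0.12 log2 (adjusted p = 0.0171). The pseudogene WBGene00010240 had a pooled value of -1.80 ± 0.34 log2, made of 0.23 ± 0.28 and -3.84 ± 0.46, and its pooled call (adjusted p = 0.0457) was lost without either L4440 library, with an adjusted p of 0.339 or 0.313.

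Those calls show that a pooled average can pass on one group alone. Of the 57 genes, 41 combined no overlap between the RNAi libraries and the controls with a label difference that was not called and stayed within 1.5-fold. The last was judged by its 95% interval. Only 30 of the 57 changed more than 1.5-fold, so this width does not show that both groups changed alike. For F55F10.1, which met these conditions, the log2 fold change was -0.15 for hlh-2 RNAi and -0.35 for lin-32 RNAi. The interval of the label difference for ugt-63, -0.45 to -0.15, left out 0. Both clec-209 loci met the other conditions but had a called difference between the labels. Of the 41 genes, 13 rose and 28 fell. They include argk-1, cth-1, cysl-2, asp-14, icl-1, cpr-4, cpr-1, lys-4, lys-6, ugt-63, ugt-32 and ugt-25. For asp-14 the difference between labels was -0.028 log2 units (95% interval -0.24 to 0.18), and for cth-1 it was 0.076 (-0.030 to 0.18). For lys-7 the interval ran from -0.067 to 0.61 and so did not stay within 1.5-fold. For argk-1 it was 0.23 (0.11 to 0.35), lower under the lin-32 RNAi label, with an adjusted p of 0.116.

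On the X chromosome, F48E3.2 and F48E3.6 lie 8294 bases apart and both fell in the pooled test. The first was at 10.4 and 10.2 CPM in L4440, at 5.91, 5.75 and 4.82 CPM under the hlh-2 RNAi label, and at 5.48, 5.20 and 5.48 CPM under the lin-32 RNAi label. The RNAi groups were alike and clearly under the controls (-0.92 ± 0.097 log2, adjusted p = 0.00109 by edgeR). It shares 242 exonic bases with gly-12 on the other strand. Its neighbour was at 5.26 and 4.97 CPM, then 3.96, 4.38 and 4.73 CPM, then 1.74, 1.497 and 2.09 CPM, so most of its pooled value came from the lin-32 RNAi label (difference 1.30 log2 units, adjusted p = 0.00131).

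Within 10000 bases of each other lay 7 pairs of called genes, made of 10 genes, and the members of each pair moved one way. These were the pairs of the argk-1 stretch, lys-4 with lys-6, the F48E3 pair, and C17H12.6 with H20E11.2 on chromosome IV. The level of C17H12.6 was 24.9 and 22.3 CPM in L4440 and 11.95 to 17.5 CPM in the RNAi libraries (-0.71 ± 0.12 log2, adjusted p = 0.0177), and that of H20E11.2 was 4.26 and 3.56 CPM against 1.20 to 1.997 CPM (-1.21 ± 0.18 log2, adjusted p = 0.0136). Between them H20E11.3 was not called (-0.23 ± 0.090 log2, adjusted p = 0.422). Chromosome V held 22 of the 57 genes, or 38.6%, against 19.3% of all genes tested.

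Among other genes, F21C10.9 fell from 11.5 and 11.7 CPM to between 5.14 and 7.69 CPM (-0.94 ± 0.10 log2, adjusted p = 0.00121 by edgeR). The gene sysm-1 fell from 122.5 and 119.6 CPM to between 63.5 and 89.7 CPM (-0.71 ± 0.10 log2, adjusted p = 0.00910). The endoribonuclease gene endu-2 fell from 43.7 and 46.8 CPM to between 31.7 and 38.5 CPM (-0.34 ± 0.057 log2, adjusted p = 0.0184). In all 3 the groups were apart. Lower as well were the pseudogene WBGene00012680 (-0.84 ± 0.10 log2), D1086.3 (-0.44 ± 0.071 log2), K11H12.4 (-0.49 ± 0.083 log2), Y52E8A.3 (-1.01 ± 0.17 log2), F54D5.4 (-0.29 ± 0.049 log2), F55F10.1 (-0.25 ± 0.044 log2) and VF13D12L.3 (-0.21 ± 0.040 log2).

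Among the remaining genes that rose, ZK1290.5 was at 3.58 and 3.67 CPM in L4440 and 6.27 to 8.47 CPM in the RNAi libraries (0.89 ± 0.14 log2, adjusted p = 0.0144 by edgeR). At low level, F55F3.4 was at 0.317 and 0.218 CPM against 0.626 to 1.20 CPM (1.71 ± 0.32 log2, adjusted p = 0.0469), and DESeq2 and limma-voom did not call it. The non-coding RNA tts-1, which associates with ribosomes, was at 71.2 and 75.7 CPM against 78.9 to 98.7 CPM (0.28 ± 0.053 log2, adjusted p = 0.0469). Each had RNAi libraries wholly above the controls. The glucosidase gene aagr-1 (0.27 ± 0.049 log2), the kinase gene rskn-2 (0.29 ± 0.054 log2) and slcr-46.3 (0.36 ± 0.068 log2) also rose. Of the genes in these last 2 paragraphs, all lost their call without L4440 replicate 2, with adjusted p-values of 0.0647 for F21C10.9, 0.204 for sysm-1, 0.279 for ZK1290.5 and 0.280 for tts-1.

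The RNAi machinery itself showed no called change. Of 44 genes listed for uptake, dicing, amplification and Argonautes, 42 were tested and edgeR called none, with 0 called by DESeq2 or limma-voom. Of the 42, 5 had an unadjusted p below 0.05, as did 10.2% of all genes tested. The 95% intervals of all 42 lay within 1.5-fold of no change, between -0.29 and 0.43 log2, as did those of 70.9% of all genes tested. The dsRNA channel gene sid-1 was at 82.3 and 79.1 CPM in L4440 and at 79.7 to 87.3 CPM in the RNAi libraries, with overlapping groups (0.042 ± 0.044 log2). The gut uptake receptor gene sid-2 was at 0.15 ± 0.13 log2. Within the exogenous pathway, rde-11 was at 0.11 ± 0.047 log2 (adjusted p = 0.459) and rde-12 at -0.080 ± 0.036 log2 (adjusted p = 0.476).

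Neuronal and reproductive lists gave little in the pooled test. Of 41 genes of the sensory cilium, 5 lay above 0 and the median was -0.26 log2. Against L4440 the median was -0.059 for hlh-2 RNAi and -0.42 for lin-32 RNAi. In this list edgeR called none, and DESeq2 and limma-voom called 0. An unadjusted p below 0.05 was found for 6 (14.6%), against 10.2% of all genes tested. The member with the smallest p was nphp-1, for a nephrocystin of the ciliary gate (-1.12 ± 0.31 log2, adjusted p = 0.234). Of 18 touch neuron genes, egl-46 was the one called. Of 29 pan-neuronal genes none was called or had an unadjusted p below 0.05. Of 39 germline, 30 oocyte and 18 sperm genes none was called, with 9, 1 and 1 (23.1%, 3.33% and 5.56%) at an unadjusted p below 0.05. DESeq2 and limma-voom also called 0 in the last 4 lists.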

How the data were processed

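RNA-seq of 8 whole-nematode libraries was used. Per the labels' protocols, total RNA went into unstranded TruSeq RNA v2 libraries. The submitters' processing notes name featureCounts 1.4.6-p4, TopHat2 2.1.0, bcl2fastq 1.8.4 and the build WBcel235; for counting settings, the sources used here state nothing. The authors deposited raw read counts for 46748 genes. Symbols matched 43693 IDs, and coordinates come from annotation release 115.

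Using edgeR 4.0.16 under R 4.3.3, genes were kept by filterByExpr, scaled by TMM and fitted with group as the only term (glmQLFit, glmQLFTest); the pooled contrast was the mean of both RNAi groups minus L4440, and p-values were adjusted by Benjamini-Hochberg over 14272 genes with a threshold of 0.05. SE came from the F statistic. Steps were tested on simulated data. Alternatives used DESeq2 1.42.0 and limma 3.58.1 (voom), other scalings, filters, thinning, blocks and left-out libraries.

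The comparison, the 54 gene lists and the naming rule were chosen with earlier results of these data known. In each direction the rule took the 12 largest changes (mean of at least 5 CPM) and 12 smallest p among called genes with separate groups, then up to 4 called and 2 other members of each list, both targets, up to 6 genes differing between labels and up to 6 whose labels differed by at most 0.2 log2 units. Named outside it, after their values were seen, are let-754, sid-1, str-7, H20E11.3, H20E11.2, clec-65, clec-67, clec-68, clec-5, WBGene00009047, endu-2, Y52E8A.3, F54D5.4, F55F10.1, fib-1, F55F3.4, sas-7, VF13D12L.3, tts-1 and spt-4. No replicate pair agreed within counting noise (chi-square divided by its degrees of freedom was at least 5.58).

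Equal replicate numbers correlated at 0.265, 0.194 and 0.191 between the RNAi labels, across genes, and were taken to pair those 6 libraries. This pairing comes from the data. Where no block is named, edgeR values come from the fit with group only, without this pairing. The same holds for the label differences and for the 41 genes whose label difference was not called. L4440 libraries correlated at -0.066, -0.037, -0.16 and -0.12 with their own number and were not paired.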

Additional observations from a re-analysis of the deposited data

Results flagged for a closer look

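Of the 57 genes that passed the pooled test, 9 differed between both RNAi labels by the test of the difference itself in edgeR, given here as log2 units of hlh-2 RNAi minus lin-32 RNAi. The difference was 4.07 for WBGene00010240, 3.45 for sqt-1, 2.58 for col-17, 2.23 for egl-46, 1.86 for arrd-1, 1.39 for fmi-1 and 1.30 for F48E3.6, each lower under the lin-32 RNAi label. At the clec-209 loci it was -0.23 for WBGene00021224 and -0.20 for WBGene00018910, lower under the hlh-2 RNAi label. Groups of 2 or 3 libraries are too small to test single libraries for standing apart.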

How the results depend on the processing

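Against 57 pooled calls (16 higher, 41 lower; 71.9% lower) and 58 between the labels, the counts were 393 (197 and 196) and 342 with no filter, 100 (34 and 66) and 91 with DESeq2, and 33 (8 and 25) with the 6 RNAi libraries as 1 group. limma-voom gave 48 pooled calls, of which 8 were higher and 83.3% lower. With replicate number as a block, pooled calls were 177 (82 and 95) and calls between the labels 132; with the block among the RNAi libraries, added after seeing the data, they were 326 (147 and 179) and 269, all 57 genes included each time. These blocked pooled values rest on controls whose numbers did not pair. With 1 library left out, pooled calls ran from 7 to 63 (1 to 19 higher, 6 to 46 lower) and calls between the labels from 25 to 93. The low pooled ends came without L4440 replicate 2 (7) and replicate 1 (16). Between the labels, 93 came without hlh-2 RNAi replicate 1, 28 and 31 without its replicates 2 and 3, and 25 without lin-32 RNAi replicate 2. Scaling by library size, DESeq2 size factors, a 1 CPM filter and thinning to the smallest total gave 47 to 61 pooled calls; thinning gave 57, of which 50 were among the 57.

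All 57 genes kept their sign in every alternative that gave a value, and 29 passed in all 10 that left out no library. The uncalled lin-32 turned positive with library size alone (0.016), no filter (0.00019), 1 RNAi group (0.24), thinning (0.12), the block (0.11) and 5 of 8 left-out libraries (-0.12 to 0.071 over all 8). Where no cause is shown by the setting itself, the cause was not tested. Low counts limit col-17, col-90, sqt-1, clec-68 and F55F3.4.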

Other observations

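Outside the lists described above, large families gave no call in the pooled test by edgeR; DESeq2 called 1 neuropeptide gene and limma-voom 0. Of 188 nuclear hormone receptors, 126 lay above 0 with a median of 0.055 log2 and 17 (9.04%) had an unadjusted p below 0.05. Of 239 F-box genes, 88 lay above 0 (median -0.074 log2, 29 or 12.1% with an unadjusted p below 0.05). Of 113 neuropeptide genes 65 did (median 0.047 log2, 16 or 14.2% with an unadjusted p below 0.05). Over all genes tested 7066 of 14272 lay above 0, and 1453 (10.2%) had an unadjusted p below 0.05.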
